A study of Drosophila melanogaster with 2 samples.

Results

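The nuclear genes of the mitochondrial respiratory chain and the ATP synthase were set against the sites recovered by anti-GFP ChIP-seq (chromatin immunoprecipitation followed by sequencing) from whole Drosophila melanogaster prepupae. Members were the protein-coding nuclear genes of the Ensembl annotation whose symbol began with ND-, COX and a digit, ATPsyn or UQCR-, together with SdhA, SdhB, SdhC, SdhD, RFeSP, Cyt-c1 and Cyt-c-p. The rule found 87 members among 13945 nuclear protein-coding genes on the major arms (X, 2L, 2R, 3L, 3R) and on 4. Of these, 40 belonged to complex I, 4 to complex II, 11 to complex III, 16 to complex IV and 15 to complex V, and 1 was the cytochrome c gene Cyt-c-p. Main subunits numbered 66, and 21 members were further copies, whose symbols end in L or in L and a digit. The prepupae, aged 1 day, came from a transgenic strain that carried an insertion of the homeodomain protein CG11294 fused to eGFP, and 2 biological replicates were labelled, both of the same group. The antibody label named CG11294 and the description named anti-GFP, and which protein was recovered was not tested. No control immunoprecipitation, input or other strain was analysed here, so no conditions were compared, and recovery that did not depend on the tagged protein cannot be told apart. Whole animals mix all tissues, so a site cannot be given to any cell type. The deposited files were peak lists, and read depth was unknown.

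The respiratory chain passes electrons from NADH at complex I and from succinate at complex II through ubiquinone to complex III, then through cytochrome c to complex IV, which reduces oxygen. Complexes I, III and IV pump protons, and the ATP synthase, complex V, uses the proton gradient to make ATP. Nearly all of these subunits are encoded in the nucleus and imported, and their genes lie scattered over the chromosomes. In flies many of them have a further gene copy, several of which are known for expression in the testis.

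The sequences at the recovered sites of 4 members are shown first because the results below turn on where these sites lie. Each is read from the Release 6 genome (dm6) on the strand of its member gene, 5′ to 3′, as the whole peak for ND-ASHI and Cyt-c-p and as a window centred on the summit for the other members. Capitals mark CACTG, or CAGTG where it lies on the opposite strand.
ND-ASHI, chrX:6679269-6679491, minus strand: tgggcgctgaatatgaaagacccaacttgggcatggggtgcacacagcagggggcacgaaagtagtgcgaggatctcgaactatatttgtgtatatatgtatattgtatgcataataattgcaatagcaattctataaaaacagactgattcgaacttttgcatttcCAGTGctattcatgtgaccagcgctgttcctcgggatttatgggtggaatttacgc
Cyt-c-p, chr2L:16720751-16720969, plus strand: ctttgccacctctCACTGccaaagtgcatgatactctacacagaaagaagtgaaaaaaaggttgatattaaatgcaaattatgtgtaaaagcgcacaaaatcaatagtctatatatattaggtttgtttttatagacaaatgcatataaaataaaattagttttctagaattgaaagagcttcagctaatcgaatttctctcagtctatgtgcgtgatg
ATPsynE, chr3R:14327842-14328042, plus strand: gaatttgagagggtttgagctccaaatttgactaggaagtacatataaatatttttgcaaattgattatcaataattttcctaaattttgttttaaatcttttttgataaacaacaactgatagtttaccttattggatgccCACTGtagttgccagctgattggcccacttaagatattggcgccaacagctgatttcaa
ATPsynCF6, chr3R:23356090-23356190, minus strand: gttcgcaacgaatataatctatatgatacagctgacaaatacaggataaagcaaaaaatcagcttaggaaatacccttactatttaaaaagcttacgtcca
The CACTG of the ND-ASHI and Cyt-c-p peaks lies away from the summit, and the 50 bp on each side of the summit had a GC content of 32.7% for ND-ASHI and 21.8% for Cyt-c-p.

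A member was called bound when a summit of the conservative list, the thresholded list of peaks whose ranks were reproducible between the replicates, lay within 1 kb of one of its annotated transcription start sites (TSS). Reproducibility was the authors' irreproducible discovery rate (IDR), and thresholded peaks had an IDR of 0.01 or less. Among the chain's genes 6 of 87 members (6.90%, 95% Wilson interval 3.20% to 14.2%) were bound, against 1648 of 13945 nuclear protein-coding genes (11.8%). The interval, which covers counting error over genes only, holds the share of all genes. The bound members were ND-ASHI, ND-MWFE and ND-75 of complex I, the cytochrome c gene Cyt-c-p, and ATPsynE and ATPsynCF6 of complex V. No member of complex II, III or IV was bound, nor was any of the 21 further copies. A member's peak carries a signal value, the authors' enrichment statistic on a scale that was not stated, which is used here to rank and describe peaks within a list. Where the replicates' signals are given side by side, their scales may differ, and the ranks in each list show where the peak stood. The strongest peaks of the 6 bound members had a median signal of 165 (67.3 to 347), against 140 (2.21 to 1649) for all bound genes. No bound member's signal lay between 78.0 and 253, so this median falls in a gap. By rank, counted from the strongest peak, the members stood lower. Their median rank was 1448 (44.4% of the list), against 1172 (35.9%) for all bound genes.

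**Figure D1:**
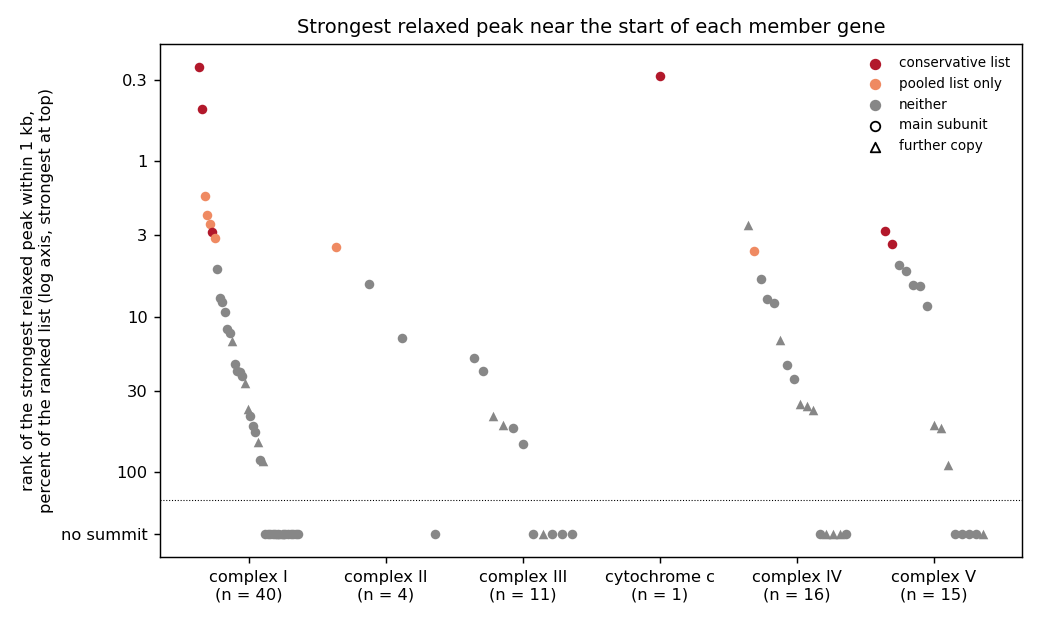
Strongest relaxed peak within 1 kb of a TSS for each of the 87 members, as its rank in percent of the ranked list between the replicates (log axis, strongest at the top), by complex. Red points are the 6 members in the conservative list, orange points the 6 in the pooled list only, grey points the other members, triangles further copies, and the lowest strip holds the 30 members with no relaxed summit. Among complexes I to V, red points appear only in I and V, and complex III lies low.

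ND-ASHI (FBgn0029888), an accessory subunit of the membrane arm of complex I, had the strongest site of any member. The peak, chrX:6679269-6679491 on dm6, had a signal of 347 and ranked 234 of 3261 in the conservative list. Its signal was 167 in replicate 1 and 175 in replicate 2, and it was thresholded in both. The summit lay at -272 bp from the nearest ND-ASHI TSS (negative is upstream) and in an intron of Fum1, the fumarase gene of the TCA cycle, at -250 bp from a Fum1 TSS. The site thus sits between the starts of a respiratory gene and a TCA cycle gene and was slightly closer to Fum1. In replicate 2 the summit was at -239 bp from ND-ASHI and -283 bp from Fum1, so the nearer gene changed between lists.

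Cyt-c-p (FBgn0284248) encodes the cytochrome c that carries electrons from complex III to complex IV. Its peak, chr2L:16720751-16720969, had a signal of 320 and ranked 266. The signal was 176 in replicate 1 and 145 in replicate 2, both thresholded. The summit was at 927 bp, inside an intron of Cyt-c-p itself, and no other gene had a TSS within 1 kb, so this was the 1 bound member that did not share its peak. The neighbouring gene Cyt-c-d, which encodes the other fly cytochrome c and lies outside the symbol rule, had a stronger conservative summit of its own (signal 439, rank 142) at 372 bp, although CG31808 had the nearer TSS. It too was thresholded in both replicates, with signals of 256 in replicate 1 and 181 in replicate 2. The summits of the cytochrome c pair were 4526 bp apart.

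ND-MWFE (FBgn0085468), a small accessory subunit of complex I, lay on arm 2R. Its peak, chr2R:13158411-13158591, had a signal of 253 and ranked 435. The signal was 205 in replicate 1, rank 230 of the 66090 relaxed peaks of that replicate, and 47.4 in replicate 2, rank 2199 of 89686. Both were thresholded, but the site ranked far higher in replicate 1. The summit lay at -148 bp from ND-MWFE and at -73 bp from TppII, which encodes tripeptidyl peptidase II, in a TppII intron.

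The other bound members had weaker peaks, with ranks from 2461 to 2821, and each of these peaks had the width of 340 bp that 2110 conservative peaks share. ATPsynE (FBgn0038224), which encodes subunit e of the membrane part of the ATP synthase, had a conservative summit past its own gene end at 874 bp (chr3R:14327772-14328111, signal 78.0). That summit was nearer to the TSS of another gene, at -109 bp. Its signal was 35.0 in replicate 1 and 43.0 in replicate 2, and only the replicate 2 peak was thresholded. The pooled list instead had a peak at the ATPsynE start, with its summit at 27 bp in the 5′ UTR (chr3R:14326804-14327143, signal 70.9). That second site was thresholded in replicate 1 (signal 40.1) and not in replicate 2, where it ranked 7808. ATPsynE therefore counted as bound in every thresholded list, through different peaks.

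ATPsynCF6 (FBgn0016119), coupling factor 6 of the peripheral stalk, had its summit at -76 bp (chr3R:23355970-23356309, signal 67.3), between its own TSS and that of Sec13 at -138 bp. Sec13 encodes a component of nuclear pores and of COPII vesicle coats. The signal was 53.8 in replicate 1, thresholded, and 28.7 in replicate 2, not thresholded. In replicate 2 another peak was thresholded, at -978 bp in an intron of Sec13 (signal 63.2). It overlapped a further conservative peak, whose own summit did not lie within 1 kb of an ATPsynCF6 TSS. Replicate 1 had relaxed peaks there (highest signal 26.7), none of them thresholded. ND-75 (FBgn0017566), a core complex I subunit that holds iron-sulfur clusters, had its summit at -735 bp (signal 77.4), with CG1632 nearer at -248 bp. Its signal was 51.4 in replicate 1 and 31.4 in replicate 2, and neither was thresholded. Of the 6 bound members, 3 (ND-ASHI, Cyt-c-p and ND-MWFE) therefore had 1 peak that was thresholded in both replicates.

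**Figure D2:**
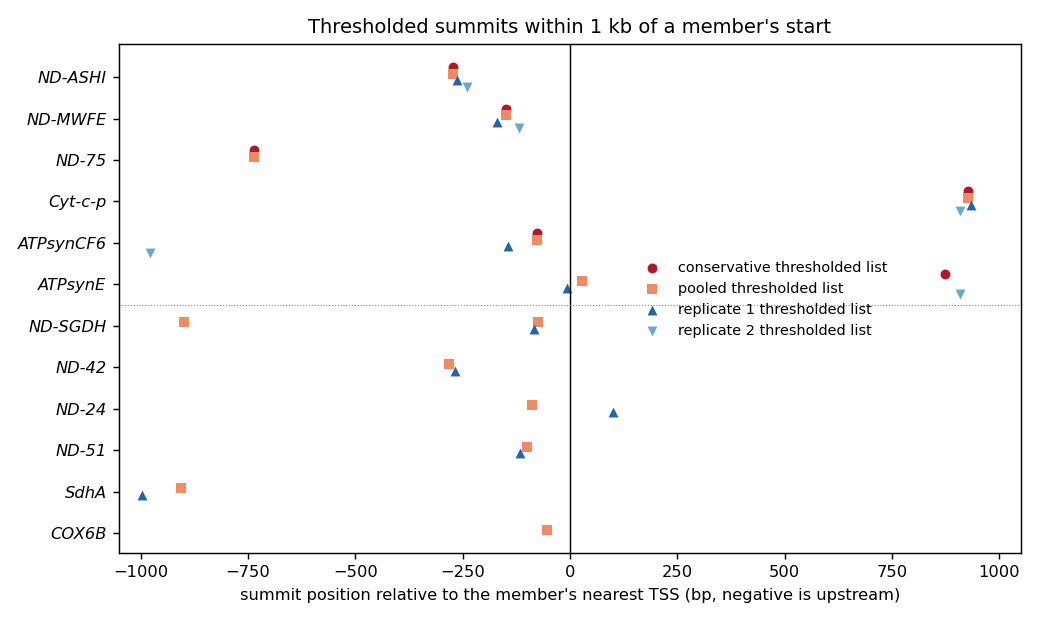
Position of each thresholded summit within 1 kb of a TSS of the 12 members found in any thresholded list, in bp from the nearest TSS of the member (negative is upstream), with 1 symbol for each list. The upper 6 genes are in the conservative list and the lower 6 in the pooled list only. ND-ASHI, ND-MWFE and Cyt-c-p hold all 4 symbols close together, while those of ATPsynE and ATPsynCF6 fall at separate places.

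Most of these sites were shared with a neighbour. The summit lay within 1 kb of another gene's TSS for 5 of 6 bound members (83.3%), against 58.2% of all bound protein-coding genes. The member's own TSS was the nearest for 2 of 6, ATPsynCF6 and Cyt-c-p (33.3%), against 71.2% of all bound genes. The median summit position was -112 bp for the members and -156 bp for all bound genes. The summit was within 500 bp for 3 of 6 bound members, against 76.1% of all bound genes. A gene that started on the other strand within 1 kb upstream was found for 44 of 87 members (50.6%) and for 38.2% of all genes. Among members with such a divergent neighbour 5 of 44 (11.4%) were bound, against 17.8% of all genes so placed. Among the other members 1 of 43 (2.33%) was bound, against 8.13% of all other genes.

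In the thresholded list of the pooled analysis, 12 of 87 members (13.8%, interval 8.07% to 22.6%) had a summit within 1 kb, against 15.7% of all genes. These were the 6 bound members and ND-SGDH, ND-42, ND-24, ND-51, SdhA and COX6B. Complex I thus had 7 of its 40 members there, complex II 1 of 4 and complex IV 1 of 16, while complex III had none of 11. In 11 of the 12 members the strongest pooled summit also lay within 1 kb of another gene. The share of all genes so placed in the pooled list is not given here, so this count has no background beside it.

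The strongest of the pooled-only sites were those of accessory subunits of complex I. The ND-SGDH summit, at -74 bp, had a signal of 113, and a neighbouring gene started on the other side, with the summit at -210 bp from its TSS. Its signal was 95.1 in replicate 1, rank 906, and 12.7 in replicate 2, rank 42612, and the IDR between the replicates was 0.77. A weaker pooled summit near ND-SGDH, at -898 bp in an intron of the same neighbouring gene, had a signal of 70.7. No replicate 1 peak overlapped it, and in replicate 2 its signal was 28.6, rank 6194, not thresholded. The ND-42 summit, at -283 bp, had a signal of 92.8 and lay in the 5′ UTR of Cchl at 54 bp from its TSS; Cchl encodes the lyase that attaches heme to cytochrome c. The signal was 88.8 in replicate 1, rank 1011, and 14.9 in replicate 2, rank 32386, with an IDR of 0.80 between the replicates. The ND-42 site and the ND-SGDH site at -74 bp thus ranked high in replicate 1 and far down in replicate 2.

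The core complex I genes ND-24, which holds an iron-sulfur cluster, and ND-51, which binds NADH and FMN, had summits at -88 bp and -100 bp from the nearest TSS. The ND-24 summit lay inside the gene, in an intron of ND-24, upstream of an internal TSS. In replicate 1 it was at 99 bp from an ND-24 TSS. ND-24 (signal 84.4) had 66.3 in replicate 1 and 19.8 in replicate 2, with an IDR of 0.075. Its summit was at -186 bp from the TSS of corolla, a gene of the synaptonemal complex. ND-51 (signal 72.4) had 56.3 in replicate 1 and 23.8 in replicate 2, with an IDR of 0.018. SdhA, the flavoprotein of complex II, had its summit at -907 bp (signal 65.7), nearer to cer at -106 bp, with 44.7 in replicate 1 and 22.9 in replicate 2. COX6B, an accessory subunit of complex IV, had its summit at -53 bp (signal 62.2), beside Rpp20 and CG33932, whose TSS was nearer at -43 bp. Its signal was 25.5 in replicate 1 and 31.1 in replicate 2, and neither replicate's peak was thresholded.

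**Figure D3:**
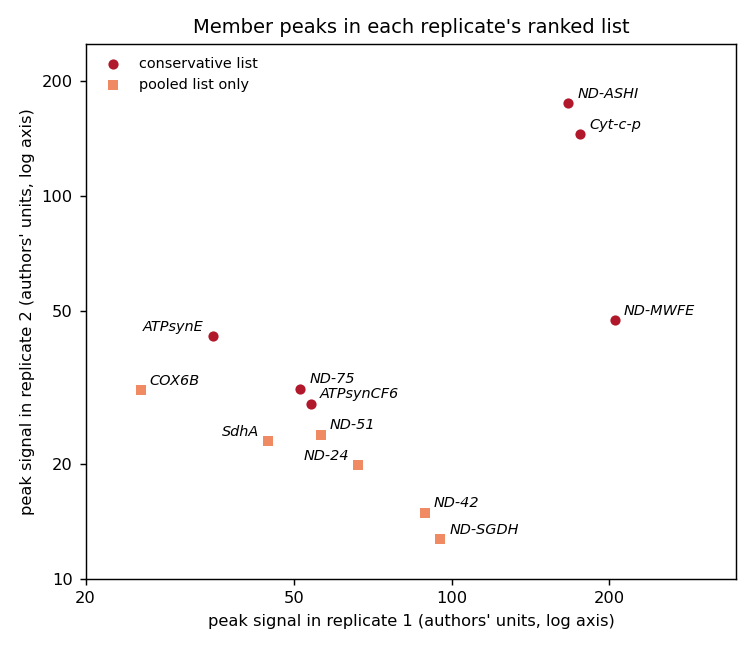
Signal of the overlapping peak in replicate 1 (x axis) and replicate 2 (y axis) for the 12 members, both in the authors' units on log axes, for the conservative peak of the 6 bound members (red) and the strongest pooled peak of the other 6 (orange squares). ND-ASHI and Cyt-c-p are high in both, and ND-42 and ND-SGDH are far higher in replicate 1 than in replicate 2; the scales of the replicates may differ.

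The replicates differed in how many members they held. Replicate 1's thresholded list had 10 members (11.5%), against 13.5% of all genes, and replicate 2's had 5 (5.75%), against 10.3% of all genes. The lists shared 5 members, all 5 of replicate 2 and 5 of the 10 of replicate 1. Among these, ATPsynE and ATPsynCF6 were in both lists through different peaks. How many of all genes the lists shared is not given here, so this overlap has no background share beside it. The 5 members of replicate 1 alone were ND-24, ND-42, ND-51, ND-SGDH and SdhA. The deposited thresholded lists held 3229 peaks for replicate 1 and 2709 for replicate 2, and their ranked lists, in the other order, 66090 for replicate 1 and 89686 for replicate 2.

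Below the thresholds, most members had a relaxed peak nearby, as did most genes. The ranked list between the replicates held 97080 peaks on these arms. Among unbound members, the IDR of the strongest relaxed peak ranged from 0.0051 (COX7AL2) to 0.89 (ATPsynCF6L and others). A relaxed summit alone therefore does not mark a reproducible site. A relaxed summit of the ranked list between the replicates lay within 1 kb of 57 of 87 members (65.5%), against 73.1% of all genes. Of these, 51 were not bound, with a median signal of 28.4 (5.52 to 113) at a median rank of 18.4% of the list, against 26.9 and 20.9% for the 8549 unbound genes of the whole annotation with a relaxed summit. By this median rank, the unbound members with a relaxed summit were placed close to the unbound genes of the annotation. A relaxed peak among the top 5000 ranks was found for 16 members (18.4%) and for 17.9% of all genes. These ranks also take in peaks past the threshold, and the 16 include every bound member, so this count does not describe unbound genes alone. Separately in the replicates, 49 members (56.3%) had a relaxed summit in replicate 1, against 62.9% of all genes. In replicate 2 it was 70 members (80.5%), against 83.5% of all genes, so all genes also had more in replicate 2. Of the members, 44 had a summit in both, 5 in replicate 1 only and 26 in replicate 2 only. The shares of all genes for these overlaps are not given here.

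How high the best relaxed peaks ranked is given for each complex as the median percent of the list over members with a summit. It was 6.33% for 10 members of complex V, 6.17% for 3 of complex II, 13.5% for 26 of complex I, 14.2% for 11 of complex IV and 46.5% for 6 of complex III, against 16.2% for all genes. Over the main subunits alone it was 5.10% for 7 of complex V, 9.32% for 21 of complex I, 7.95% for 6 of complex IV and 37.2% for 4 of complex III, so complexes I and IV came closer to V while III stayed lowest. In complex III the highest relaxed signals were 28.4 for RFeSP, the Rieske iron-sulfur protein, and 26.1 for the core protein UQCR-C2, and UQCR-C1, the other core protein, had no summit in this list. Further members with high relaxed signals were ATPsyngamma, the rotating stalk of the ATP synthase (signal 53.6), ND-23, a core complex I subunit (51.4), and ATPsynC, which forms the proton-driven ring (50.3). Their IDR between the replicates was 0.44, 0.032 and 0.45 in turn, so none of these peaks passed the threshold of 0.01. Of the 87 members, 8 had no relaxed summit within 1 kb in any of the ranked lists. These were ATPsynbeta, the catalytic subunit of the ATP synthase, and ATPsyndelta, COX8, ND-20, ND-49, UQCR-11 and the copies COX4L and UQCR-11L. Arm 4 carried 2 members, ATPsynbeta and ND-49, and both were among them. The share of all genes, or of arm 4 genes, with no such summit is not given here. These absences were therefore not set against a background.

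By the median, the further copies ranked lower than the main subunits. It was 39.9% of the ranked list over 15 copies with a summit, against 7.85% over the main subunits with one. In none of the 4 thresholded lists did any of the 21 copies have a summit within 1 kb, against 6 of 66 main subunits in the conservative list and 12 of 66 in the pooled list. All genes had one in 11.8% of cases in the conservative list and 15.7% in the pooled list. Of 4 further copies outside the symbol rule 1, Cyt-c-d, had a summit, and it did in each of the 4 lists. COX7AL2 stood apart among the copies, with a relaxed summit at 556 bp and a signal of 82.8. Its IDR of 0.0051 was past the threshold, but the peak was absent from the conservative thresholded list, as were 75 such ranked peaks in all. In the pooled ranked list its IDR was 0.00081, and it was absent from the pooled thresholded list too. In replicate 1 the COX7AL2 summit, at 517 bp, had a signal of 43.9 and an IDR of 0.0012, and was again not in the thresholded list. The strongest replicate 2 summit was elsewhere, at -618 bp. The count of 0 copies in these lists thus rests in part on this absence, whose cause was not tested. The pairs COX5B with COX5BL and COX7C with COX7CL start within 1631 bp and 867 bp of each other, so their windows overlap.

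Just inside the 1 kb limit were Cyt-c-p at 927 bp and ATPsynE at 874 bp. The nearest members outside it were ND-39 at 1550 bp, ND-B22 at 1879 bp and COX7C at -1928 bp. Within 5000 bp of a TSS, 31 members (35.6%) had a conservative summit, against 26.4% of all genes, so in this wider window the members' share was the higher one.

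The promoters of the members were read for known sequence words, both on the given strand and on its complement, from 150 bp before to 50 bp after the gene start. The 150 bp before the start are shown for 5 members, since they hold the words on which the counts below turn. They are from dm6 on the strand of the gene, and capitals mark GGTCACACT (motif 1, a core promoter word bound by M1BP), CACTG, TATCGATA (DRE, the element bound by DREF) and TTATATAA, or their complements.
Cyt-c-p, chr2L:16719782-16719931, plus strand: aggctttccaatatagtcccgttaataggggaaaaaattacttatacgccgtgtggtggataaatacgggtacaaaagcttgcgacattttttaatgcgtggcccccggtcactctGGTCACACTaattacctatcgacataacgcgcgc
COX4, chr2L:19958563-19958712, plus strand: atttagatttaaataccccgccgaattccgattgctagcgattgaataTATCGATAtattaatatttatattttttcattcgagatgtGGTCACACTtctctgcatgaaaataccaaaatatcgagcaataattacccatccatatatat
ND-B17, chr2L:15751079-15751228, minus strand: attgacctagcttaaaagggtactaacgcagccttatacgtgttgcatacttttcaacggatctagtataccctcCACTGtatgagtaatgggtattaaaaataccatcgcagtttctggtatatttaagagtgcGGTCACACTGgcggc
ND-42, chr3R:22027559-22027708, plus strand: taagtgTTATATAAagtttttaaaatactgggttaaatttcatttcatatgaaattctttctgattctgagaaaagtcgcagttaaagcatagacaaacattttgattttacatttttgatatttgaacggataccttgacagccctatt
ND-SGDH, chr3L:12138585-12138734, minus strand: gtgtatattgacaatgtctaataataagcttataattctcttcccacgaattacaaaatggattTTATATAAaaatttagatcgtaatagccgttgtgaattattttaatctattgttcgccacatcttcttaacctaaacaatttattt
The Cyt-c-p and COX4 promoters hold GGTCACACT, which in COX4 follows a TATCGATA, and in ND-B17 it runs on into CACTG. The words overlap in this way wherever GGTCACACT is followed by G.

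GGTCACACT was the word that stood out by share. It occurred in 15 of 87 member promoters (17.2%) and in 767 of all 13945 promoters (5.50%). All 15 were main subunits (22.7% of 66), from every complex but II, and none of the 21 copies had it. Of the 6 bound members, Cyt-c-p and ND-MWFE had the word in their promoters, but it lay in none of the 200 bp windows around the 6 bound summits. CACTG occurred in 32 member promoters (36.8%) and in 36.8% of all promoters, with 29 of 66 among the main subunits (43.9%) and 3 of 21 among the copies. TATCGATA occurred in 6 member promoters (6.90%), against 8.21% of all. TAATTA, a homeodomain core, occurred in 10 (11.5%), against 1680 of 13945.

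The nuclear respiratory gene element is a palindromic element described upstream of such genes in Drosophila. Its core was searched as TTACATAA, TTACGTAA, TTATATAA and TTATGTAA, of which TTACATAA and TTATGTAA are complements and give the same matches. It occurred in 4 member promoters (4.60%), those of ND-42, ND-49, ND-MNLL and ND-SGDH, against 2.75% of all promoters. In ND-42 and ND-SGDH, shown above, the word was TTATATAA, followed by A, so that it also contains TATAAA. These were also the pooled-only members with the highest signals, and no bound member's promoter or summit window held a core word. The median GC content was 34.5% for main subunit promoters and 33.5% for those of the copies, against 39.5% of all promoters.

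At the 6 bound summits, the 200 bp windows held TAAT in 6, TATAAA in 4 and CACTG in 3 (ATPsynE, Cyt-c-p and ND-ASHI). The same words lay in 92.6%, 37.0% and 46.9% of the windows at 1430 conservative summits within 1 kb of a protein-coding TSS. TAATTA lay in none of the 6, against 17.1% of all these windows. The motif 1 word, the DRE word, the E-box CACGTG and the Ets core CCGGAA also lay in none, and these were rare in all the windows as well, at 1.05%, 2.80%, 2.38% and 3.71%. GCATGC, the core of the Ewg or NRF-1 palindrome, lay in 1 of the 6, that of ND-75, against 3.08% of all these windows. The median GC content was 31.8% for the members' summit windows and 34.5% for all.

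Genes beside the chain were read from a list of 57, of which 50 matched the annotation and were not members. Of these, 11 (22.0%) had a conservative summit within 1 kb, against 11.8% of all genes. The count was 14 of 50 in the pooled list, against 15.7% of all genes. It was 8 of 50 in replicate 1, against 13.5%, and 6 of 50 in replicate 2, against 10.3%, so it depended on the list. These genes were chosen with earlier results of these data known, so no conclusion is drawn from their share beside that of all genes. The strongest was CIA30, which encodes a complex I assembly factor, with a summit at -115 bp (signal 1281, rank 6). Its peak lay nearer to the TSS of CG7601 and was thresholded in both replicates, with signals of 650 in replicate 1 and 621 in replicate 2. Coa8, an assembly factor of complex IV, had 70.8 at 117 bp, with no thresholded summit within 1 kb in either replicate. Of 5 subunits that the symbol rule does not reach, 2 had a summit. For blw, the alpha subunit of the ATP synthase, the signal was 164 at -151 bp. For levy, a complex IV subunit, it was 165 at -141 bp, nearer to the TSS of another gene. The blw and levy peaks were both thresholded in replicate 1 and not in replicate 2.

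Of 17 genes of the TCA cycle and pyruvate dehydrogenase, 4 were bound. Idh3g, a subunit of the NAD-dependent isocitrate dehydrogenase, had a summit at -86 bp (signal 269), thresholded in both replicates. Fum1 shared the ND-ASHI peak, Pdhb, the beta subunit of pyruvate dehydrogenase, had 87.9 at -90 bp, and Ogdh, of the oxoglutarate dehydrogenase complex, had 62.4 at 693 bp. Of 5 exchange carriers and channels, porin, the channel of the outer membrane, was bound (signal 73.6 at -627 bp), with SmydA-3 nearer. Of 13 genes of mitochondrial biogenesis and mitochondrial DNA, mtSSB, the single-strand binding protein, was bound (signal 65.8 at -378 bp). Ogdh, porin and mtSSB had no thresholded summit within 1 kb in either replicate, and Pdhb had such a summit in replicate 1 only.

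Set beside other large protein machines, the members had a lower share bound than the ribosomal genes in the conservative list. It was 6.90% of the 87 members, against 16.4% of 73 mitochondrial ribosomal protein genes, 21.7% of 92 cytoplasmic ribosomal protein genes and 4.17% of 48 proteasome genes. A divergent neighbour was found for 50.6% of the members and for 79.5%, 63.0% and 45.8% of these sets in turn. Among genes with such a neighbour, 11.4% of the members were bound, and 20.7%, 29.3% and 9.09% in these sets. The interval for the members, 3.20% to 14.2%, ended below the 14.5% to 31.2% of the cytoplasmic ribosomal genes and overlapped the 9.66% to 26.6% of the mitochondrial ones. In the pooled list the intervals of the members and of the cytoplasmic ribosomal genes, 21.0% to 39.3%, overlapped. The median signal of the bound genes was 165 for the members, 313 for the mitochondrial and 97.5 for the cytoplasmic ribosomal genes.

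**Figure D4:**
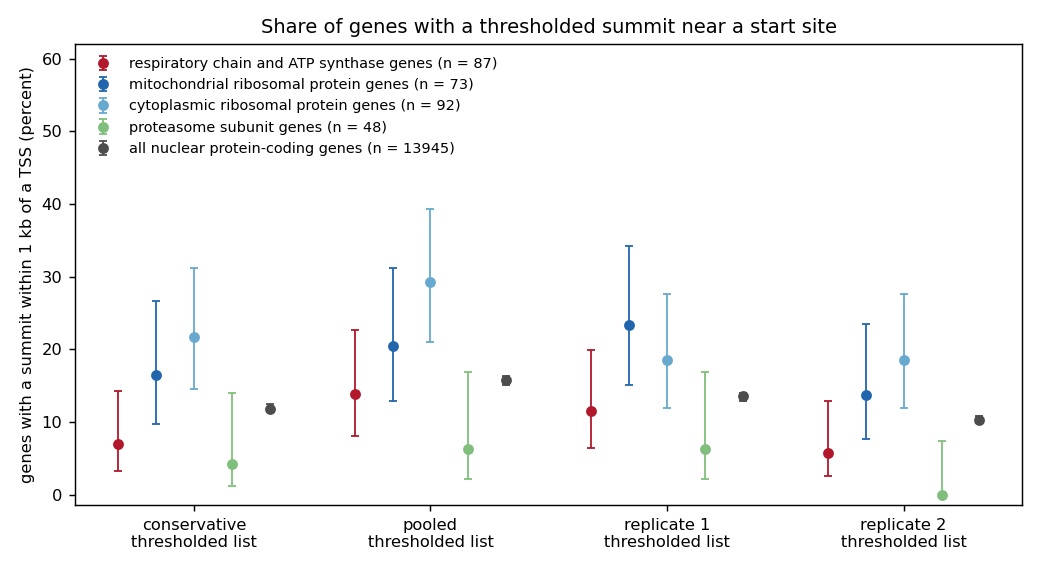
Percent of genes with a summit within 1 kb of a TSS (y axis) in each of the 4 thresholded lists (x axis), for the 87 members (red, left in each group), 3 other gene sets and all 13945 nuclear protein-coding genes (dark grey, right). Points are shares and bars 95% Wilson intervals, which cover counting error over genes only; the members lie below all genes in each list, with intervals that reach the share of all genes.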

How the data were processed

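Anti-GFP ChIP-seq of 2 replicates was deposited as 8 peak lists on dm6, per the labels. The aligner, peak caller, versions and read depth are not given in the sources used here. The deposited signal of each peak is the authors' enrichment statistic, and the deposited −log10 of the global IDR is used as IDR values. The deposited score of 830 or more marks an IDR of 0.01 or less. Ranked lists hold relaxed peaks, and each thresholded list lies inside 1 ranked list.

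Summits were placed against every TSS of the Ensembl release 115 annotation (window 1000 bp), by scripts in Python 3.11.15 with pandas 2.3.3 that were tested on simulated data. Intervals are 95% Wilson intervals by scipy 1.17.1. No test was run, since there is 1 group. Members, gene lists, words and named genes were chosen with earlier results of these data known. Named genes were the bound and pooled-list members, the highest unbound members, those beside the window limit, bound companion genes and genes sharing a peak; members singled out otherwise were chosen after their values were seen. Symbols not matched, and not analysed here, were mtacp1, kdnL, Nc73EF, SdhAF3, SdhAF4 and Coa6. 1 sequence and 2 neighbouring genes are not reported here. Alternatives were other lists, windows, IDR limits and assignments.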

Additional observations from a re-analysis of the deposited data

How the results depend on the processing

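The share of members bound minus that of all genes was -4.92 percentage points and ranged from -6.32 to -1.93 in 11 alternatives. It turned to 9.26 with a window of 5000 bp, chosen after seeing the data, where 31 members counted. The count of 6 bound members depended on the list and the window. It was 12 in the pooled list, 3 with a window of 500 bp, 3 in the strongest 1630 peaks, 3 at an IDR of 0.001 or less, and, in alternatives chosen after seeing the data, 11 in the ranked list at an IDR of 0.05 or less (COX7AL2, at 0.0051, entered through the change of list) and 2 with the member's TSS nearest. Without replicate 1 or 2 it ranged from 5 to 10. Complex I, 3 in the main list, had 7 in the pooled list, 5 with a window of 2000 bp and 2 to 6 with a replicate left out. Complex II, at 0, had 1 in the pooled list and 0 to 1 with a replicate left out, and complex IV, at 0, had 1 in the pooled list and 1 with 2000 bp. Cytochrome c had 0 with 500 bp. Complex V, at 2, had 1 with 500 bp, 0 in the strongest 1630 peaks and 0 at an IDR of 0.001 or less. The median position of -112 bp was -94.0 in the pooled list, -148 with 500 bp, in the strongest 1630 peaks and at an IDR of 0.001, -76.0 with 2000 bp, and -130 to -118 with a replicate left out. The median signal of 165 was 80.9 in the pooled list, 253 with 500 bp, 110 with 2000 bp, 320 in the strongest 1630 peaks and at an IDR of 0.001, and 63.2 to 77.6 with a replicate left out, where the list has its own scale. Within 50 bp of the summit, CACTG was in 1 of the 6 windows and TATAAA in 2. The causes were not tested, apart from the fewer peaks or wider windows that the settings themselves give. No paired analysis was possible because the samples form 1 group. Depth limits were not computed, since read depth is unknown.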
